A study of Xenopus laevis with 11 samples.

Results

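The proteasome and chaperone genes were described in embryonic tissue of the frog Xenopus laevis, measured on Affymetrix arrays. A gene belonged to the set when its symbol on the platform, without the homeolog suffixes .L and .S, began with psma, psmb, psmc, psmd, psme, hsp or dnaj, or was cct followed by a digit. The rule took 82 of the 6504 genes that had a probe set with a single symbol, by 124 of 9304 such probe sets. Each gene was read by its brightest probe set, and 33 of the 82 had 2 or more. The set held 36 proteasome genes, of which 7 were psma, 8 psmb, 4 psmc, 13 psmd and 4 psme. It held 44 chaperone genes, of which 8 were of the chaperonin CCT, 2 of HSP90, 8 of HSP70 and HSP110, 2 of HSP60 and HSP10, 3 small heat shock proteins and 21 J-domain proteins. The other 2 were hspbp1, a nucleotide exchange factor of HSP70, and psme3ip1, which codes for a protein that binds psme3 and is no proteasome subunit. X. laevis is allotetraploid: most chromosomes come as a longer and a shorter homeolog, and the suffixes .L and .S say which of them carries the copy.

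The proteasome degrades proteins that carry ubiquitin chains. Its barrel-shaped 20S core has outer rings of alpha subunits (psma) and inner rings of beta subunits (psmb) that hold the proteolytic sites, and a 19S cap with a ring of ATPases (psmc) and a set of non-ATPase subunits (psmd) binds, strips and unfolds the substrate. Chaperones fold new proteins and refold damaged ones: HSP70 works with J-domain partners, which deliver substrates, and with nucleotide exchange factors, HSP90 finishes signalling proteins, CCT folds actin and tubulin, HSP60 and HSP10 fold proteins in the mitochondrion, and hspa5 (BiP) and hsp90b1 (GRP94) serve the endoplasmic reticulum, where secreted proteins are made.

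Embryos were raised at 15 °C and the pieces were cut out by hand. Of the 11 arrays, 2 held the neural plate of stage 12, 3 the neural border of stage 14, 2 that of stage 18 and 3 the anterior neural fold of stage 18. The last held an animal cap explant grown to stage 14, which turns into epidermis. The labels give no genotype, injected agent or number of embryos per array, and they call the arrays biological replicates without naming clutches. The p-values here rest on array-to-array spread, and whether that spread includes differences between clutches is not known. The series asks which genes accompany neural crest induction, from plate to border, with the anterior fold (border that makes no crest) and the cap as references. The deposited values are log2 intensities, and a level below 3.72, the 95th percentile of 17 control probe sets for foreign tags, was treated as background. A level was compared between arrays within a probe set, not between probe sets.

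The tissue labels were checked against markers. The 5 neural crest markers, among them snai2 and sox10, were higher in the stage 18 border than in the anterior fold, and 4 of 5 anterior fold markers were lower there. The 4 neural plate markers were higher in the stage 14 border than in the cap, while 7 of 8 epidermal markers were lower, the exception being tp63. Epidermal markers gave signal in every tissue, although grhl3 was above background in the cap alone. A list's sum, here and below, is the log2 of its summed intensities, in which the brightest probe sets weigh most. The epidermal sum was 11.79 to 11.84 in the plate and 12.78 to 13.16 in the border at stage 14. It was 13.91 to 14.20 at stage 18, 13.42 to 13.49 in the anterior fold and 14.49 in the cap. Within a group, pairs of arrays had correlations of 0.983 to 0.993. The pieces are bulk tissue, in which fewer cells of a type and less RNA per cell cannot be told apart.

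By limma's moderated F test over the 5 groups, 57 of the 82 genes (69.5%) differed at an adjusted p under 0.05, beside 58.9% of all 15491 probe sets and 65.1% of all genes read by their brightest probe set. The share was 24 of 32 among psma to psmd genes, 3 of 4 among proteasome activators, 6 of 8 for CCT and 14 of 21 for J-domain proteins, and none of the 3 small heat shock proteins passed. The range of a gene's 5 group means had a median of 0.91 on the log2 scale and ran from 0.15 for dnaja2.L to 4.54 for hsp70.L. Levels of 73 genes lay above background in every group. Group means of 5 genes were below background throughout: the immunoproteasome subunit psmb8.L, the activator psme2.L, the small heat shock proteins hspb1.S and hspb8.L, and dnajb2.L. Of the 82 genes, 38 were lowest in the neural plate and 3 in the border at stage 14, while 30 were highest in the cap and 27 in the anterior fold. The cap, whose level is that of 1 array and not a mean, was also lowest for 18. No shares over all genes are given for these counts, so they are not read as particular to the set.

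**Figure D1:**
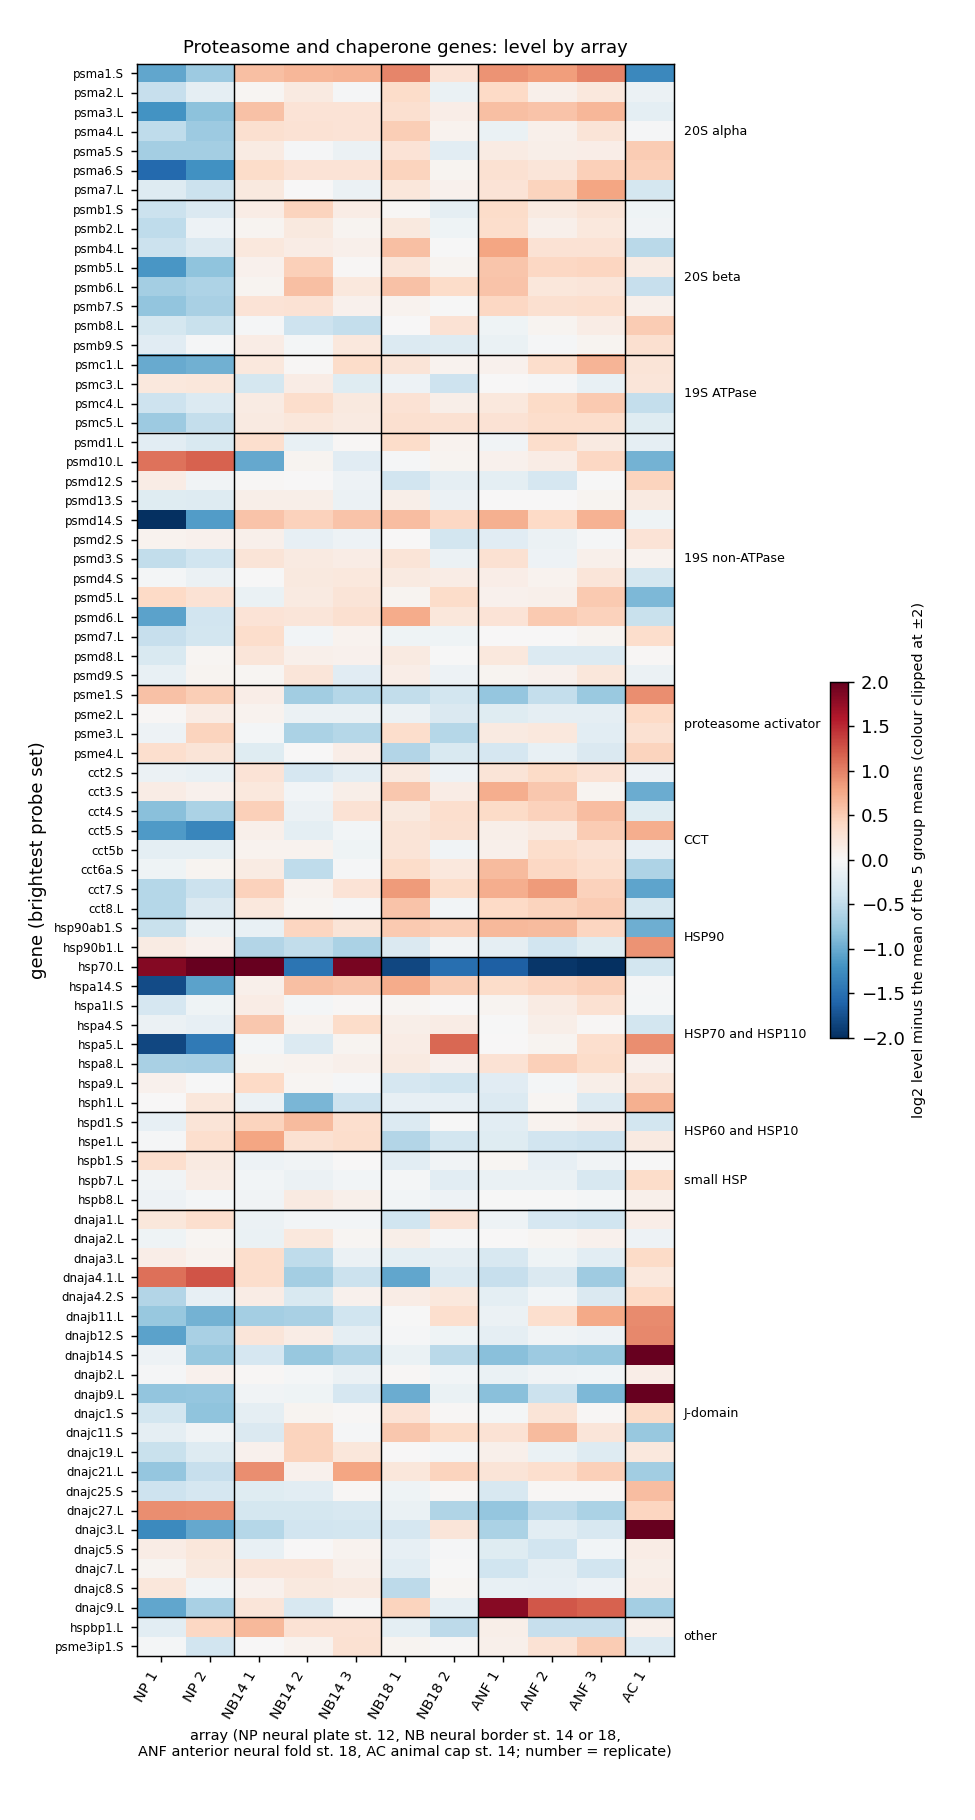
Level of each of the 82 genes (rows, by protein family) on each of the 11 arrays (columns), as log2 intensity minus the mean of the 5 group means; red is above and blue below that mean, and the colour is clipped at 2 in either direction. The plate columns are blue over most rows of the 20S core, and the cap column is red at dnajb9.L, dnajc3.L and dnajb14.S.

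The 20S core was lower in the neural plate than in the border at stage 14. Of the 7 outer-ring genes, 5 rose from plate to border, as did 4 of the 8 inner-ring genes, and none of the 15 fell. The background for these counts is that 19.6% of all probe sets rose and 21.4% fell in this comparison (41.0% in either direction). Of all genes read by their brightest probe set, 21.8% rose and 24.8% fell. The median log2 difference was 0.92 for the outer ring and 0.57 for the inner ring, against 0.01 over all probe sets. Stage and position change together between these groups and cannot be told apart.

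The outer-ring subunit psma6.S read 7.38 and 7.71 in the plate, 9.29, 9.20 and 9.20 in the border at stage 14, 9.37 and 8.99 at stage 18, 9.23, 9.17 and 9.40 in the anterior fold, and 9.41 in the cap. Both plate arrays lay more than 1 log2 unit below every other array. The rise from plate to border was 1.68 ± 0.15 (log2, SE), or 3.21-fold, with an adjusted p of 1.82e-05. Its homeolog psma6.L rose by 1.03. Another outer-ring gene, psma1.S, read 6.77 and 7.09 in the plate, 8.41, 8.48 and 8.50 in the border at stage 14, 8.79 and 8.08 at stage 18, 8.72, 8.65 and 8.80 in the anterior fold, and 6.53 in the cap. Here plate and cap were both low, and neither overlapped the border. It rose by 1.53 ± 0.19 from plate to border (adjusted p = 0.000133) and was 1.94 ± 0.24 higher in the border than in the cap (adjusted p = 0.000243). Its homeolog psma1.L was higher than in the cap by 0.95 (adjusted p = 0.00547), but its 0.29 over the plate did not pass (adjusted p = 0.178).

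The outer-ring gene psma3.L read 8.57 and 8.95 in the plate against 10.35, 10.05 and 10.05 in the border at stage 14, a rise of 1.39 ± 0.15 (adjusted p = 5.32e-05). The plate arrays were the lowest of the 11, with the cap next at 9.57. psma4.L rose by 0.92 ± 0.16 and psma5.S by 0.68 ± 0.15. psma2.L (0.39, adjusted p = 0.0955) and psma7.L (0.37, adjusted p = 0.0973) had positive estimates that did not pass. The homeolog psma7.S passed from plate to border (0.40, adjusted p = 0.0274) and was higher than in the cap (0.57, adjusted p = 0.0213).

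All of the constitutive catalytic subunits of the inner ring rose from plate to border. psmb5.L, which carries the chymotrypsin-like site, read 7.96 and 8.31 in the plate, 9.21, 9.59 and 9.15 in the border at stage 14, 9.37 and 9.17 at stage 18, 9.67, 9.54 and 9.55 in the anterior fold, and 9.29 in the cap. The plate stood apart, and every other tissue overlapped the stage 14 border. The rise was 1.18 ± 0.16, or 2.27-fold (adjusted p = 0.000261). psmb6.L, the caspase-like subunit, rose by 0.93 ± 0.17 (adjusted p = 0.00169) and psmb7.S, the trypsin-like subunit, by 0.93 ± 0.11 (adjusted p = 9.94e-05). The subunits psmb8.L and psmb9.S, which replace catalytic subunits in the immunoproteasome of immune cells in mammals, read 2.68 to 3.67 and 3.37 to 3.97 over the 11 arrays, at or near background. No fold is given for psmb8.L between border and cap, since both lay below background.

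In the 19S cap, 3 of the 4 ATPase genes rose from plate to border, beside 19.6% of all probe sets that rose and 21.4% that fell. Of the 13 psmd genes 4 rose and 1 fell, and the one that fell, psmd10.L, codes for an assembly factor and not for a subunit of the finished cap. The ATPase gene psmc1.L read 5.11 and 5.17 in the plate, 6.34, 6.14 and 6.49 in the border at stage 14, 6.38 and 6.19 at stage 18, 6.21, 6.47 and 6.80 in the anterior fold, and 6.38 in the cap. Every array outside the plate was higher, without overlap. The rise was 1.18 ± 0.17 (adjusted p = 0.000397). psmc5.L rose by 0.80 ± 0.11 and psmc4.L by 0.59 ± 0.13, whereas the estimate for psmc3.L was -0.37 (adjusted p = 0.0903).

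Among non-ATPase genes the widest difference belonged to psmd14.S, the metalloprotease of the lid that removes ubiquitin chains from substrates. It read 4.97 and 5.86 in the plate, 7.55, 7.44 and 7.55 in the border at stage 14, 7.59 and 7.39 at stage 18, 7.69, 7.38 and 7.68 in the anterior fold, and 6.90 in the cap. The plate arrays differed from each other but both lay below the rest. The rise was 2.1 ± 0.22, or 4.27-fold (adjusted p = 5.76e-05), and the homeolog psmd14.L rose by 2.09 (adjusted p = 1.38e-06). psmd6.L, a lid subunit, rose by 1.00 ± 0.21, psmd3.S by 0.64 ± 0.15 and psmd7.L by 0.54 ± 0.13. Both are lid subunits too. The psmd7.L call ended without plate replicate 1, which leaves 1 plate array (adjusted p = 0.0539), and its other probe set did not pass (0.18, adjusted p = 0.504).

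psmd10.L (gankyrin), which binds the ATPase ring during assembly and leaves the finished proteasome, went the other way. It read 6.04 and 6.13 in the plate, 3.93, 5.01 and 4.73 in the border at stage 14, 4.93 and 5.02 at stage 18, 5.04, 5.10 and 5.37 in the anterior fold, and 4.01 in the cap. The plate was the highest tissue, and border replicate 1 was as low as the cap. It fell by 1.53 ± 0.26, or 2.89-fold, from plate to border (adjusted p = 0.00102). The other assembly factors in the set, psmd5.L (-0.24, adjusted p = 0.34) and psmd9.S (0.06, adjusted p = 0.798), did not pass.

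**Figure D2:**
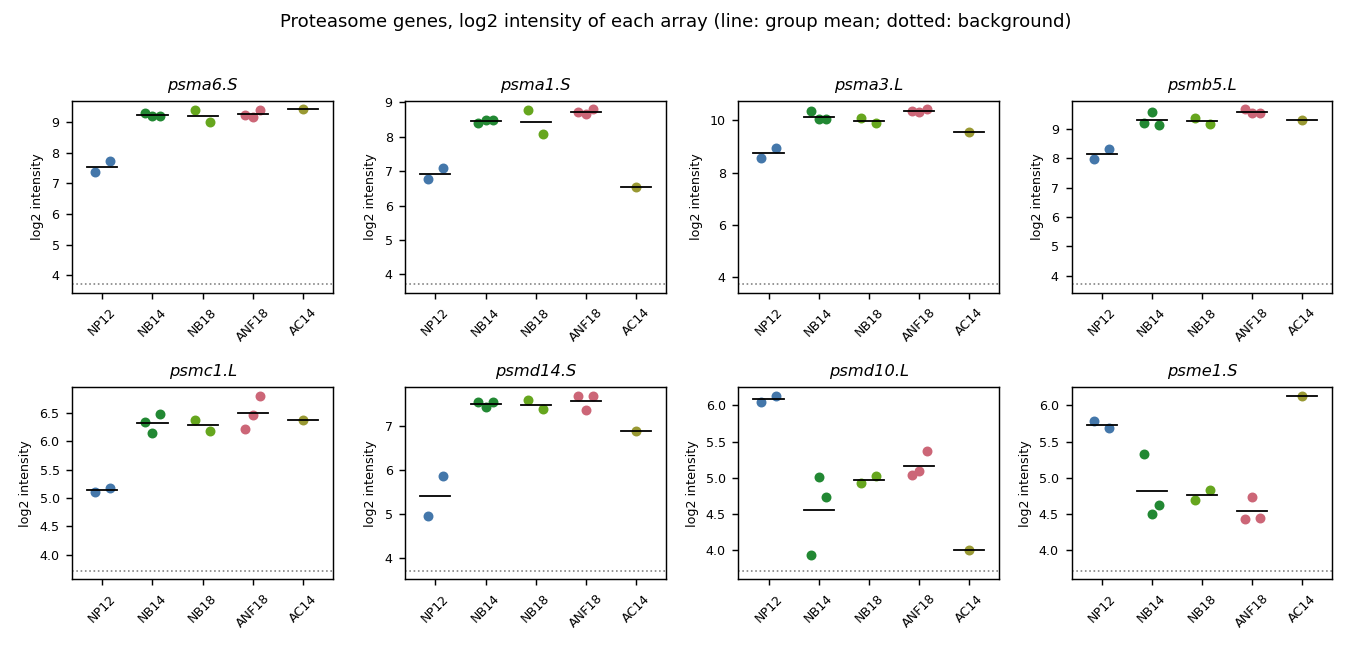
Log2 intensity (vertical axis) of 8 proteasome genes on each array, by tissue (horizontal axis: NP12 neural plate stage 12, NB14 and NB18 neural border stages 14 and 18, ANF18 anterior neural fold stage 18, AC14 animal cap stage 14); points are arrays, lines group means, and the dotted line the background of 3.72. The plate is lowest for psma6.S, psma3.L, psmb5.L, psmc1.L and psmd14.S, highest for psmd10.L, and psme1.S is high in plate and cap.

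The proteasome activators open the core in place of the 19S cap. Of their 4 genes, 0 rose from plate to border and 1, psme1.S, fell. Of all probe sets 19.6% rose and 21.4% fell there, so these counts are not read as particular to the family. All 4 psme genes had negative estimates from plate to border, with a median of -0.45. All 4 were highest in the cap, psme2.L below background there as everywhere. Shares over all genes are not given for the group with the highest level, so this is not read as particular to the family. psme1.S read 5.78 and 5.69 in the plate, 5.33, 4.5 and 4.63 in the border at stage 14, 4.70 and 4.83 at stage 18, 4.43, 4.73 and 4.45 in the anterior fold, and 6.13 in the cap. Plate and cap stood above every border and fold array. It fell by 0.91 ± 0.22 from plate to border (adjusted p = 0.0076, and 0.0578 without plate replicate 1) and was 2.48-fold lower in the border than in the cap (-1.31 ± 0.28, adjusted p = 0.00569). psme3.L and psme4.L, whose products act in the nucleus, did not pass against the plate (-0.58 and -0.32, adjusted p = 0.146 and 0.0961).

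Over all psma to psmd genes, 16 of 32 rose from plate to border and 1 fell, beside 19.6% and 21.4% of all probe sets, with a median difference of 0.53. The log2 of their summed intensities was 12.96 to 13.08 in the plate and 13.58 to 13.68 in the border at stage 14. It was 13.50 to 13.77 at stage 18, 13.71 to 13.80 in the anterior fold and 13.41 in the cap. The plate did not overlap any other tissue, and the fold lay just above the stage 14 border while the stage 18 border overlapped both. Epidermal markers moved the same way between plate and border, with 5 of 8 higher, grhl3 below background in both and tp63 below it in the plate. Neural border and neural crest markers rose as well, 4 of 5 in each list, while 2 of 4 neural plate markers fell. The cap had the highest epidermal sum (14.49), but its proteasome sum lay below that of the stage 14 border. The axial mesoderm markers tbxt and foxa4 (2 of 4) were higher in the plate, where the list summed to 6.29 to 6.96 against 4.80 to 4.97 in the border, with col2a1 and shh below background in both. The 3' over 5' difference of the beta-actin control probe sets, a sign of RNA quality, was -2.55 and -2.46 in the plate and -3.08 to -2.75 in the border. The same difference for the Gapd controls overlapped, at 2.17 and 2.44 in the plate and 2.08 to 2.55 in the border. The part of these in the result was not tested.

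Between the stage 14 and stage 18 border, none of the 32 psma to psmd genes passed by limma on its brightest probe set. At an unadjusted p under 0.05, 1 was higher and 2 lower, and the median was -0.03. The homeolog psmd14.L, a dimmer probe set, was higher at stage 18 (0.65, adjusted p = 0.0115). Of all probe sets 3.78% rose and 2.78% fell there by the adjusted p (6.56% in all), and 10.7% and 9.95% by the unadjusted p. Between the stage 18 border and the anterior fold none passed either, with 0 higher and 3 lower unadjusted. Among dimmer homeologs, psmd8.S was higher in the border (0.58, adjusted p = 0.0101) and psma7.S lower (-0.50, adjusted p = 0.0479). The shares over all probe sets were 3.31% higher and 2.67% lower by the adjusted p (5.97% in all), and 9.34% and 7.59% unadjusted. There 25 of the 32 estimates were negative, with a median of -0.11, beside 7693 of 15491 over all probe sets. This count of signs was not tested. Against the cap, 7 were higher in the border and 1 lower, which was psmb8.L, below background in every group (the background was 15.1% higher and 15.8% lower, 30.9% in all), with a median of 0.18. Besides psma1.S the highest was psmd5.L at 1.00 ± 0.22 (adjusted p = 0.00743), which read 6.82, 7.14 and 7.22 in the border and 6.06 in the cap. psmb6.L (0.74), psmc4.L (0.72), psma3.L (0.58), psmd4.S (0.49) and psmc5.L (0.43) were also higher, but less firmly. The calls of psma3.L and psmc5.L each ended under 10 of 18 alternatives, that of psmd4.S under 5, that of psmb6.L under 3 and that of psmc4.L under 1, while those of psma1.S and psmd5.L held under all 18. The cap had 1 array, so its spread was taken from the other groups.

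The cytosolic chaperonin CCT rose in part. Of 8 subunit genes, 4 rose from plate to border and none fell, with a median of 0.36, beside 19.6% of all probe sets that rose and 21.4% that fell. cct5.S read 8.70 and 8.54 in the plate, 9.94, 9.65 and 9.78 in the border at stage 14, 10.09 and 10.16 at stage 18, 9.95, 10.02 and 10.35 in the anterior fold, and 10.56 in the cap. The plate was lowest and the cap highest, neither overlapping the border. It rose by 1.18 ± 0.15 from plate to border (adjusted p = 0.000145) and was lower in the border than in the cap (-0.77 ± 0.18, adjusted p = 0.0108). cct4.S rose by 0.95 ± 0.17, cct7.S by 0.76 ± 0.18 and cct8.L by 0.50 ± 0.18. Their homeologs did not pass: cct4.L (0.50, adjusted p = 0.293), cct7.L (0.31, adjusted p = 0.0633) and cct8.S (-0.19, adjusted p = 0.547). The cct8.L call (adjusted p = 0.0437) ended under 10 of 18 alternatives, and that of cct7.S without plate replicate 1 (0.0629).

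CCT subunits differed in the cap. cct7.S read 8.49, 8.10 and 8.31 in the border at stage 14 and 6.98 in the cap, and cct3.S read 8.14, 7.87 and 8.04 against 6.93. Both were lower in the cap than on any other array, by 1.32 ± 0.23 for cct7.S (2.5-fold, adjusted p = 0.00186) and by 1.09 ± 0.25 for cct3.S (adjusted p = 0.00844), the opposite direction from cct5.S. Of the 8 CCT genes, 7 had their highest group mean in the anterior fold. No share over all genes is given for this count, so it is not read as particular to CCT. None differed between the stage 18 border and the fold by limma, with 0 at an unadjusted p under 0.05 (9.34% of all probe sets were higher and 7.59% lower). None differed between border stages either, where 1 was higher unadjusted, beside 10.7% of all probe sets. All 8 estimates there were positive, from 0.05 to 0.41, beside 7284 of 15491 over all probe sets. This count of signs was not tested.

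**Figure D3:**
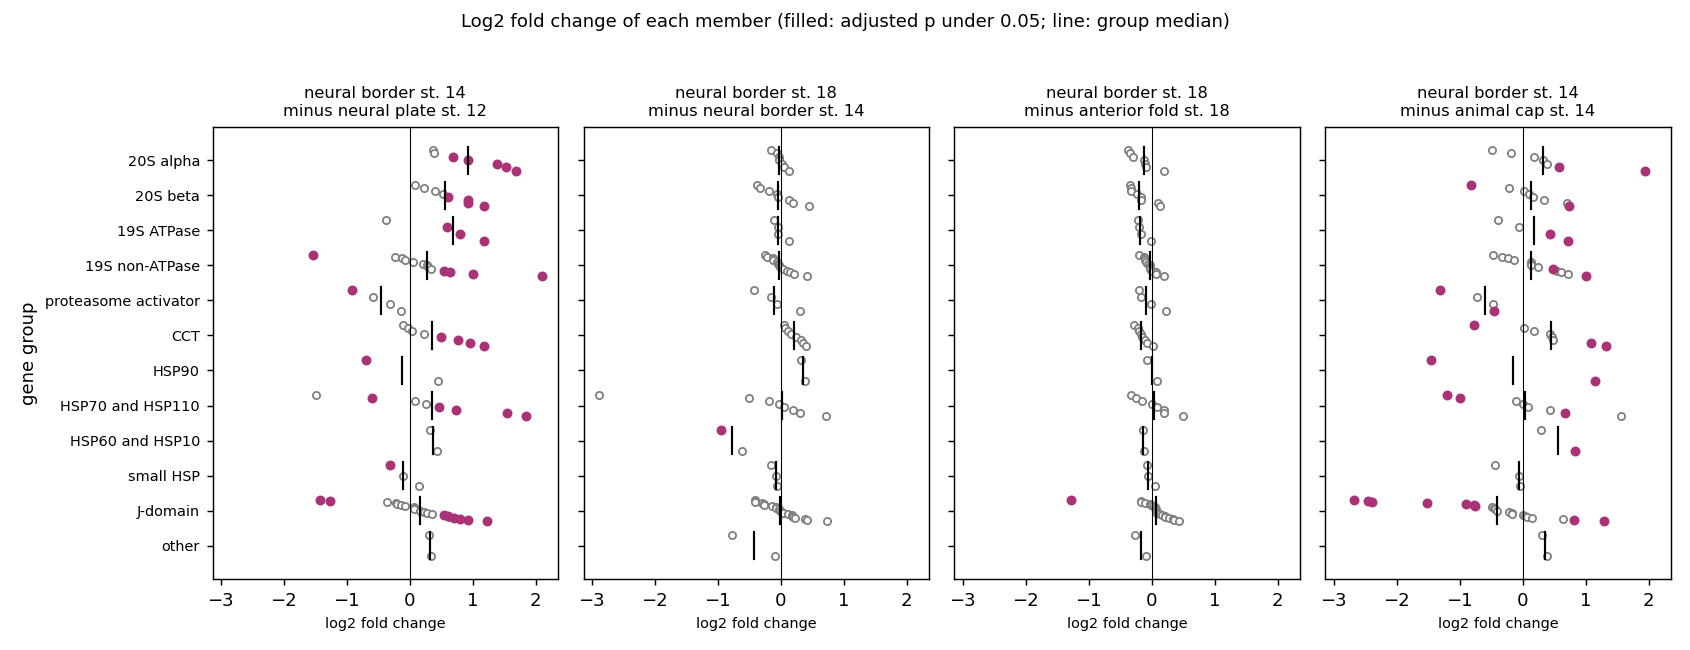
Log2 fold change (horizontal axis) of every gene in the 4 comparisons, by protein family (vertical axis); filled points have an adjusted p under 0.05 and black lines are family medians. Filled points are numerous from plate to stage 14 border and between border and cap, and number 1 in each of the other panels.

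In the cytosol, the constitutive HSP70 gene hspa8.L was bright throughout: 11.41 and 11.40 in the plate, 12.12, 12.13 and 12.16 in the border at stage 14, 12.24 and 12.14 at stage 18, 12.35, 12.53 and 12.43 in the anterior fold, and 12.14 in the cap. Arrays of one tissue lay close together, and the plate was below the rest. It rose by 0.74 ± 0.10, or 1.67-fold, from plate to border (adjusted p = 0.000257). hspa14.S, an HSP70 relative that works at the ribosome in mammals, read 4.47 and 5.19 in the plate and 6.36, 6.85 and 6.81 in the border, a rise of 1.84 ± 0.21, or 3.59-fold (adjusted p = 9.89e-05). The probe set of its homeolog hspa14.L showed -0.03 (adjusted p = 0.913). hspa4.S, an exchange factor for HSP70, rose by 0.46 ± 0.14 (adjusted p = 0.0225), a call that ended under 6 of 18 alternatives.

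hsp90ab1.S, the constitutive cytosolic HSP90, read 10.21 and 10.54 in the plate, 10.50, 11.08 and 10.91 in the border at stage 14, 11.18 and 11.13 at stage 18, 11.30, 11.28 and 11.09 in the anterior fold, and 9.68 in the cap. The cap was the lowest array, and plate and border overlapped. The border exceeded the cap by 1.15 ± 0.22, or 2.22-fold (adjusted p = 0.00319), and its 0.45 over the plate did not pass (adjusted p = 0.0612). hsph1.L (HSP110), another exchange factor, was the reverse: it read 8.70, 7.89 and 8.40 in the border at stage 14 and 9.52 in the cap, a difference of -1.20 ± 0.27 (2.29-fold, adjusted p = 0.00732, and 0.0567 from the arrays of those groups alone). It was also lower than in the plate (-0.60 ± 0.21, adjusted p = 0.046), a call that ended under 12 of 18 alternatives.

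The stress-inducible hsp70.L had the widest range, and its arrays disagreed within tissues. It read 7.33 and 9.03 in the plate, 8.68, 4.04 and 7.40 in the border at stage 14, 3.67 and 3.99 at stage 18, 3.87, 3.55 and 3.50 in the anterior fold, and 5.13 in the cap. Every stage 18 array was at or near background, while border replicate 2 at stage 14 was far below the other two. The 5 groups differed by the F test (adjusted p = 0.0169), but no single comparison passed: from stage 14 to stage 18 the estimate was -2.88 ± 1.06 (adjusted p = 0.152). Without border replicate 2 at stage 14, that drop passed (adjusted p = 0.00518), as did the border over the cap (0.0102).

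dnaja4.1.L, a cytosolic J-domain partner of HSP70, read 9.56 and 9.72 in the plate, 8.81, 7.78 and 8.03 in the border at stage 14, 7.42 and 8.19 at stage 18, 8.0, 8.16 and 7.74 in the anterior fold, and 8.66 in the cap. The plate lay above every other array. It fell by 1.43 ± 0.30, or 2.70-fold, from plate to border (adjusted p = 0.00363).

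**Figure D4:**
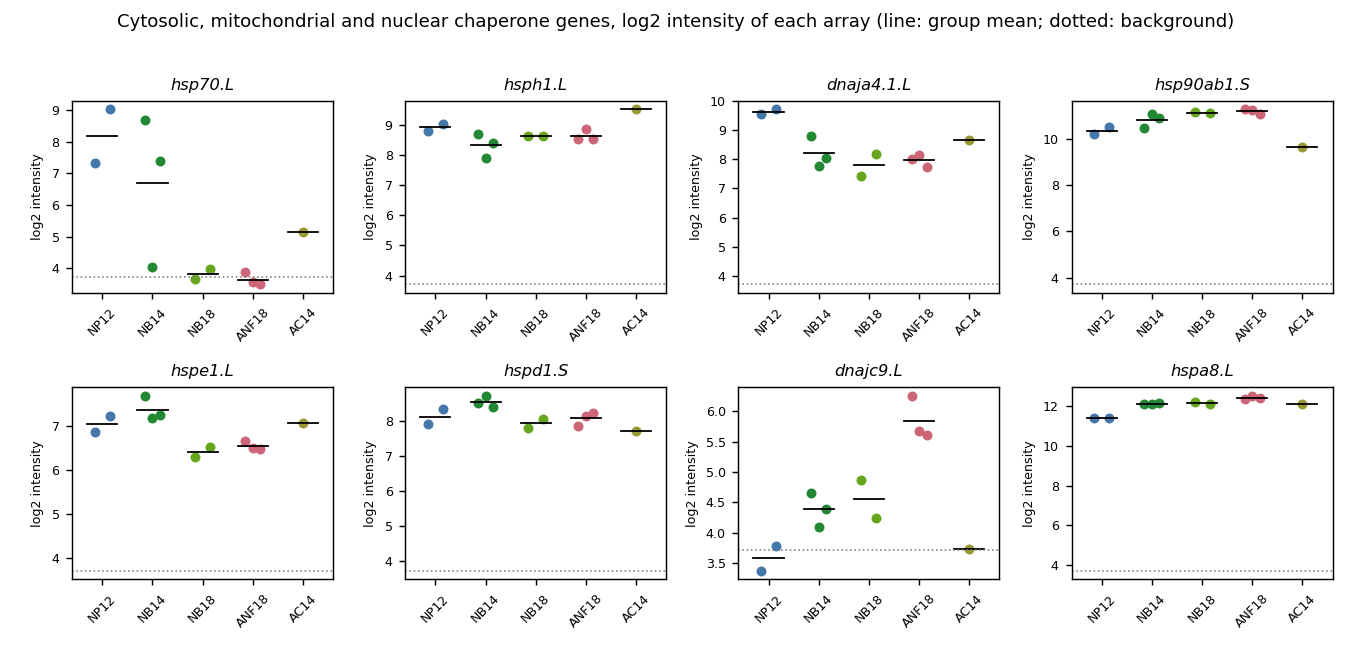
Log2 intensity (vertical axis) of 8 chaperone genes of the cytosol, mitochondrion and nucleus on each array, by tissue (horizontal axis, named as in the plot of proteasome genes); points are arrays, lines group means and the dotted line the background. hsp70.L spans 4.04 to 8.68 within the stage 14 border and lies between 3.50 and 3.99 on all stage 18 arrays, and dnajc9.L is highest on the 3 anterior fold arrays.

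Genes of the endoplasmic reticulum stood highest in the animal cap, which is 1 array. Of all 11 arrays it had the lowest 3' over 5' difference, -3.14 for beta-actin and 1.85 for Gapd. The part of RNA quality was not tested. Of 9 members that work in the reticulum, a grouping made after their values were seen, 8 were lower in the stage 14 border than in the cap and none higher. That is 88.9%, beside 15.8% of all probe sets, with a median of -1.46. The exception was dnajc1.S (-0.40, adjusted p = 0.171). The log2 of their summed intensities was 12.17 in the cap, 10.49 to 10.51 in the plate and 10.78 to 10.87 in the border at stage 14. It was 10.93 and 11.32 at stage 18, and 10.79 to 11.05 in the fold.

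dnajc3.L, a J-domain protein of the lumen that restrains the stress kinase PERK, read 6.07 and 6.31 in the plate, 6.76, 6.96 and 6.97 in the border at stage 14, 7.0 and 7.58 at stage 18, 6.71, 7.13 and 7.02 in the anterior fold, and 9.35 in the cap. The cap was well above every other array. The border-minus-cap difference was -2.46 ± 0.24, or 5.49-fold (adjusted p = 6.58e-05), and the gene rose by 0.71 ± 0.19 from plate to border (adjusted p = 0.013, and 0.113 without plate replicate 1). dnajb9.L, a BiP partner that is induced by endoplasmic reticulum stress in mammals, read 7.11, 7.10 and 6.84 in the border at stage 14 and 9.41 in the cap, and the other arrays lay between 6.19 and 7.05. The difference was -2.39 ± 0.30, or 5.25-fold (adjusted p = 0.000258). dnajb14.S, in the membrane of the reticulum, read 5.62, 5.20 and 5.35 in the border at stage 14 and 8.06 in the cap, with the other arrays from 5.13 to 5.86, a difference of -2.67 ± 0.26, or 6.37-fold (adjusted p = 6.55e-05).

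The reticulum's main HSP70, hspa5.L (BiP), read 6.63 and 7.03 in the plate, 8.41, 8.18 and 8.50 in the border at stage 14, 8.59 and 9.59 at stage 18, 8.46, 8.50 and 8.79 in the anterior fold, and 9.37 in the cap. The plate was far the lowest, and stage 18 border replicate 2 was higher than the cap. It rose by 1.54 ± 0.26, or 2.90-fold, from plate to border (adjusted p = 0.00102), and hspa5.S rose by 1.77 (adjusted p = 0.000316). Against the cap it differed by -1.0 ± 0.33 (adjusted p = 0.0447), a call that ended under 8 of 18 alternatives, each of which left out 1 array, while hspa5.S differed by -1.24 (adjusted p = 0.0137). From stage 14 to stage 18 the estimate was 0.72 (adjusted p = 0.147), and over the fold 0.50 (adjusted p = 0.388). Both passed without stage 18 border replicate 1 (0.0148 and 0.0235), but that leaves replicate 2, the high one, as the only array of its tissue, with its spread taken from the other groups.

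hsp90b1.L (GRP94) differed in its pattern: it read 8.70 and 8.62 in the plate, 7.95, 8.04 and 7.91 in the border at stage 14, 8.25 and 8.46 at stage 18, 8.36, 8.15 and 8.29 in the anterior fold, and 9.43 in the cap. The stage 14 border was the lowest tissue. It fell by 0.69 ± 0.12 from plate to border (adjusted p = 0.00087), where hspa5.L rose and its own homeolog hsp90b1.S showed -0.04 (adjusted p = 0.952), and was -1.46 ± 0.15, or 2.75-fold lower, against the cap (adjusted p = 7.53e-05), as was hsp90b1.S (-1.41, adjusted p = 0.043). dnajb11.L, a lumenal BiP partner, read 6.23 and 6.04 in the plate, 6.31, 6.34 and 6.59 in the border at stage 14, 6.98 and 7.33 at stage 18, 6.88, 7.33 and 7.75 in the anterior fold, and 7.93 in the cap. Its levels at stage 18 did not overlap those at stage 14, but the rise of 0.74 ± 0.23 did not pass (adjusted p = 0.0849). Its homeologs parted from plate to border: dnajb11.S fell by 0.88 (adjusted p = 0.000162) and dnajb11.L had an estimate of 0.28 (adjusted p = 0.379), while against the cap both were lower, at -1.49 and -1.52. dnajb12.S, a J-domain gene of the reticulum membrane (-0.89), and dnajc25.S (-0.76) were also lower than in the cap.

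**Figure D5:**
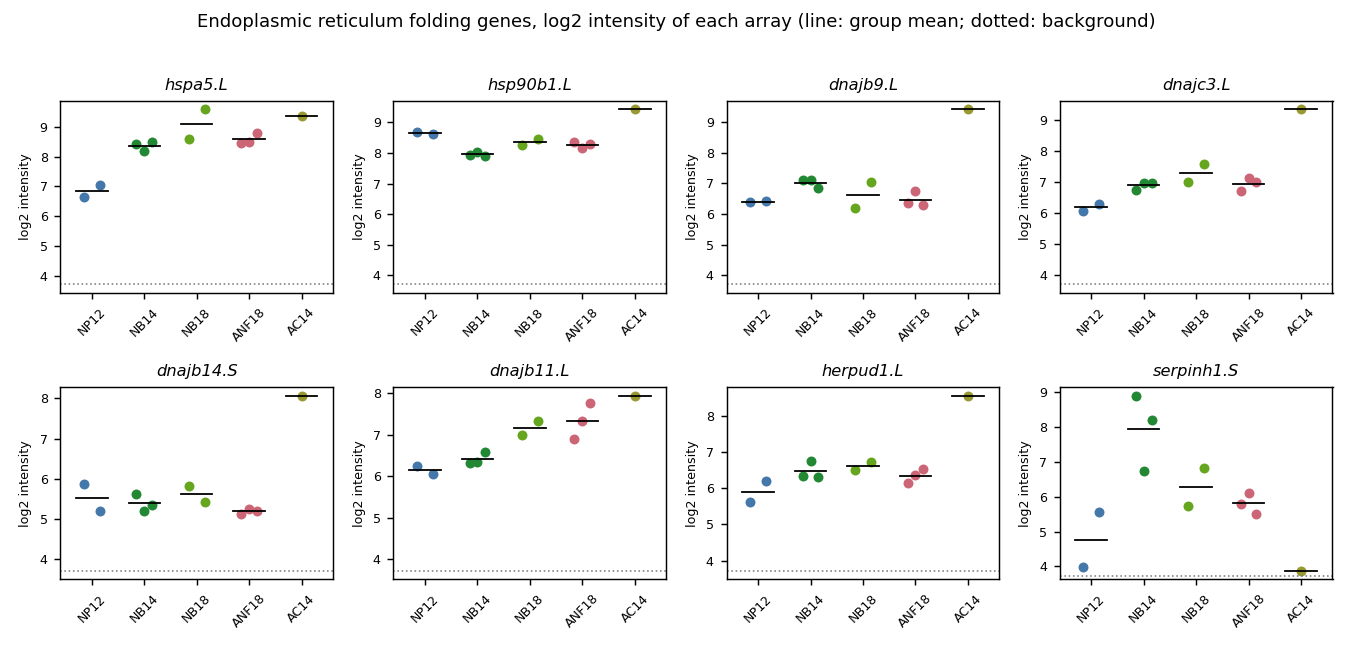
Log2 intensity (vertical axis) of 6 endoplasmic reticulum genes of the set and of herpud1.L and serpinh1.S from the related list, on each array, by tissue (horizontal axis, named as in the plot of proteasome genes); points are arrays, lines group means and the dotted line the background. The cap point is the highest for hsp90b1.L, dnajb9.L, dnajc3.L, dnajb14.S, dnajb11.L and herpud1.L, second to 1 stage 18 border array for hspa5.L, and the lowest for serpinh1.S.

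A separate list of 24 folding and quality-control genes of the reticulum, none of them in the set, leaned the same way against the 1 cap array. In the border 15 were lower (62.5%) and 1 higher (4.17%), beside 15.8% and 15.1% of all probe sets, with a median of -0.97. herpud1.L, which helps to degrade misfolded proteins, differed by -2.09 ± 0.26 (adjusted p = 0.000244) and manf.S, a secreted stress-responsive protein, by -1.84 ± 0.26 (adjusted p = 0.000577). The gene that was higher was serpinh1.S, the collagen-specific chaperone. It read 3.99 and 5.55 in the plate, 8.89, 6.75 and 8.20 in the border at stage 14, 5.72 and 6.83 at stage 18, 5.80, 6.12 and 5.50 in the anterior fold, and 3.88 in the cap. The cap was near background and the stage 14 border was the highest tissue, though replicate 2 there lay below the others and within the range of the stage 18 border. It exceeded the cap by 4.06 ± 0.79 (adjusted p = 0.00341) and the plate by 3.18 ± 0.62 (adjusted p = 0.00234). Epidermal markers moved with the reticulum genes, 7 of 8 being higher in the cap, while in the stage 18 border their sum of 13.91 and 14.20 lay near the 14.49 of the cap. Replicate 2 of that border exceeded replicate 1 in the epidermal sum (14.20 and 13.91), in the multiciliated cell sum (8.14 and 7.21), and in the reticulum list (13.29 and 12.98). The part of these cells in the result was not tested.

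From plate to border the reticulum list had 9 genes higher (37.5%) and 4 lower (16.7%) of 24, beside 19.6% and 21.4% of all probe sets. Besides serpinh1.S, pdia4.L (a disulfide isomerase) rose by 1.72 ± 0.21 and calr.L (calreticulin, a lectin chaperone) by 1.28 ± 0.24. Between border stages 1 gene of the 24 rose (4.17%), beside 3.78% of all probe sets. It was fkbp10.L, a prolyl isomerase that acts on collagen (0.96 ± 0.22, adjusted p = 0.0342).

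In the mitochondrion, the HSP60 gene hspd1.S and its lid hspe1.L (HSP10) both had their highest group mean in the stage 14 border. Neither passed from plate to border (0.43 and 0.32), and for hspe1.L plate and border overlapped. hspe1.L read 6.86 and 7.22 in the plate, 7.67, 7.18 and 7.23 in the border at stage 14, 6.30 and 6.51 at stage 18, 6.64, 6.49 and 6.46 in the anterior fold, and 7.06 in the cap. All 5 stage 18 arrays lay below all of the others. From stage 14 to stage 18 it fell by 0.95 ± 0.17, or 1.94-fold (adjusted p = 0.0121), and its other probe set fell by 0.82 (adjusted p = 0.00698). By brightest probe set, hspe1.L was the 1 gene of the 82 that passed in this comparison. Of all probe sets 2.78% fell and 3.78% rose there (6.56% in all). At an unadjusted p under 0.05, 5 genes were higher and 10 lower, beside 10.7% and 9.95% of all probe sets. The call ended without stage 18 border replicate 1 (adjusted p = 0.0691) and in a fit of the border arrays alone (0.0666).

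hspd1.S read 7.91 and 8.34 in the plate, 8.52, 8.72 and 8.41 in the border at stage 14, 7.81 and 8.07 at stage 18, 7.87, 8.15 and 8.22 in the anterior fold, and 7.71 in the cap. The border at stage 14 lay above the rest without overlap. Its estimate to stage 18 was -0.61 ± 0.17 (adjusted p = 0.0628, and 0.0478 after median centring), and it exceeded the cap by 0.84 ± 0.22 (adjusted p = 0.0142). The mitochondrial HSP70, hspa9.L, had an estimate of -0.51 to stage 18 (adjusted p = 0.0812). The other hspd1.S probe set had -0.81 to stage 18 (adjusted p = 0.0555) but -0.19 against the cap (adjusted p = 0.649), and the homeolog hspd1.L showed 0.05 to stage 18 (adjusted p = 0.917).

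The 21 J-domain genes as a family were mixed. From plate to border 6 rose (28.6%) and 2 fell (9.52%), beside 19.6% and 21.4% of all probe sets. In the stage 14 border 2 were higher than in the cap (9.52%) and 7 lower (33.3%), beside 15.1% and 15.8% of all probe sets. Outside the reticulum, dnajc21.L, a factor of ribosome assembly, read 5.40 and 5.70 in the plate, 7.09, 6.26 and 6.96 in the border at stage 14, and 5.48 in the cap. It was low in plate and cap. It rose by 1.22 ± 0.22 from the plate (adjusted p = 0.00154) and exceeded the cap by 1.29 ± 0.28 (adjusted p = 0.00649, and 0.0556 from those arrays alone). dnajc27.L, a small GTPase that carries a J domain, read 6.10 and 6.08 in the plate, 4.82, 4.82 and 4.85 in the border at stage 14, 5.04 and 4.57 at stage 18, 4.39, 4.65 and 4.54 in the anterior fold, and 5.60 in the cap. It was high in plate and cap, the reverse of dnajc21.L. It fell by 1.26 ± 0.14, or 2.40-fold, from plate to border (adjusted p = 8.58e-05).

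dnajc9.L codes for a co-chaperone of histones H3 and H4. By brightest probe set, it was the 1 gene of the 82 that differed between the stage 18 border and the anterior fold. It read 3.38 and 3.78 in the plate, 4.66, 4.1 and 4.40 in the border at stage 14, 4.87 and 4.25 at stage 18, 6.25, 5.67 and 5.60 in the anterior fold, and 3.74 in the cap. The fold lay above every other array, and plate and cap were at background. The border-minus-fold difference was -1.28 ± 0.26, or 2.43-fold (adjusted p = 0.0172), in a comparison in which 2.67% of all probe sets were lower and 3.31% higher (5.97% in all). The call ended without stage 18 border replicate 2 (adjusted p = 0.153) and in a fit of those arrays alone (0.0515). At an unadjusted p under 0.05, 0 genes of the 82 were higher in the border and 5 lower, beside 9.34% and 7.59% of all probe sets. The rise from plate to border, 0.80 ± 0.26 (adjusted p = 0.0308), starts from a level at background and understates any larger difference. Neural plate markers differed in the same direction here, 3 of 4 (sox2, sox3 and zic2) being lower in the border than in the fold and zic1 higher. Their sum was highest in the stage 12 plate (11.95 to 12.23, against 11.42 to 11.71 in the fold), where dnajc9.L was at background. Other lists also parted border and fold: 4 of 5 anterior fold markers were lower in the border and 5 of 5 neural crest markers higher. Of 5 endoderm markers 1 was lower in the border and 0 higher, with a median of -0.41. Their sum was 6.75 to 7.33 in the border and 8.95 to 9.47 in the fold. The part of those cells was not tested.

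The small heat shock proteins lay at background: hspb1.S read 2.31 to 2.86, hspb7.L 3.36 to 4.04 and hspb8.L 3.26 to 3.55 over the 11 arrays. No fold is given for them. The steadiest genes above background were dnaja2.L, a cytosolic J-domain protein at 9.74 to 10.08 on all arrays, and psmd9.S at 4.98 to 5.44. By brightest probe set, psmd8.L, hspa1l.S and dnajc8.S followed. The homeolog psmd8.S was 0.58 higher in the stage 18 border than in the fold (adjusted p = 0.0101). hspbp1.L (0.31) and psme3ip1.S (0.34) did not pass from plate to border.

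Over all 82 genes, 30 rose (36.6%) and 7 fell (8.54%) from plate to stage 14 border, against 19.6% and 21.4% of all probe sets, with a median of 0.31. Of all genes read by their brightest probe set, 21.8% rose and 24.8% fell. The 7 include hspb1.S, below background in every group, and became 4 without plate replicate 1. Between border and cap 14 were higher and 14 lower, 17.1% each against 15.1% and 15.8% of all probe sets, with a median of 0.06. By brightest probe set, 16.8% of all genes were higher and 17.7% lower, so these counts are not read as particular to the set. The 14 lower include psmb8.L and psme2.L, both below background throughout. All comparisons but that of the stage 18 border with the fold share the stage 14 border arrays, and that one shares the stage 18 border arrays with the comparison of stages, so their differences are not independent of each other.

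Homeologs could be set side by side for 23 genes. From plate to border their estimates had the same sign in 18, both copies passed in 6, and 1 copy passed in 11. Against the cap these counts were 19, 5 and 6. No shares over all homeolog pairs are given, so these counts are not read as particular to the set. In no comparison did probe sets of a gene pass in opposite directions, and in 13 of the 33 genes with several probe sets only some of them passed from plate to border. Copies with a near-identical sequence can share a signal on the array.

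Helpers of the proteasome partly rose with it. Of 13 genes for assembly and regulation, 5 rose from plate to border (38.5%) and 1 fell (7.69%), with a median of 0.50. Of all probe sets 19.6% rose and 21.4% fell there. psmg1.L, which pairs alpha subunits into rings, read 7.18 and 7.65 in the plate and 9.02, 9.07 and 8.99 in the border at stage 14, a rise of 1.61 ± 0.20 (adjusted p = 0.000137). The groups did not overlap. The maturation factor pomp.S rose by 0.97 ± 0.15 and psmg2.L, the partner of psmg1, by 0.91 ± 0.23. From stage 14 to stage 18 the proteasome-bound deubiquitinase usp14.S fell by 0.47 ± 0.12 (adjusted p = 0.0433). Against the cap psmf1.L, an inhibitor of the core, was higher by 0.79 ± 0.24.

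Of 16 genes for ubiquitin and the unfoldase p97, 7 rose from plate to border (43.8%) and 5 fell (31.2%), beside 19.6% and 21.4% of all probe sets. The conjugating enzyme ube2n.S read 6.73 and 6.82 in the plate and 8.76, 8.84 and 8.73 in the border at stage 14, a rise of 2.00 ± 0.12, or 4.0-fold (adjusted p = 2.26e-06). Replicates lay close together and the groups did not overlap. faf2.L, a p97 adaptor, rose by 1.38 ± 0.15, and ubxn4.S, another, fell by 1.64 ± 0.15. Against the cap the activating enzyme uba1.S (1.37 ± 0.16) and the shuttle ubqln4.L (1.10 ± 0.15) were higher, and nploc4.S (-0.61) and ubxn4.S (-0.59) lower. The conjugating enzyme ube2d4.L fell by 0.72 ± 0.12 from stage 14 to stage 18 (adjusted p = 0.00986).

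Of 20 cytosolic co-chaperones and heat shock factors, 5 rose and 3 fell from plate to border, beside 19.6% and 21.4% of all probe sets. These counts are not read as particular to the list. In the border 9 of the 20 were higher and 1 lower than in the cap, with a median of 0.42. Of all probe sets 15.1% were higher and 15.8% lower there. ttc4.L, a co-chaperone of HSP90, read 3.98 and 4.09 in the plate and 6.09, 5.83 and 6.26 in the border at stage 14, a rise of 2.02 ± 0.15 (adjusted p = 7.15e-06). The transcription factor hsf2.L read 5.77 and 6.18 in the plate, 8.05, 7.56 and 7.80 in the border, and 6.43 in the cap. It was low in both references, with a rise of 1.83 ± 0.17 from the plate (adjusted p = 2.58e-05) and a difference of 1.37 ± 0.22 from the cap (adjusted p = 0.0011). The muscle-type myosin chaperone unc45b.S fell by 1.74 ± 0.16 from the plate. Against the cap the HSP90 activator ahsa1.S was higher (1.18 ± 0.36) and chordc1.S, which binds HSP90, lower (-0.95 ± 0.31).

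Of 8 prefoldin, tcp1 and tubulin folding genes, pdcl3.L rose (0.66 ± 0.21) and vbp1.S fell (-0.62 ± 0.15) from plate to border. Of all probe sets 19.6% rose and 21.4% fell there. None of the 8 passed against the cap by limma, beside 15.1% of all probe sets higher and 15.8% lower. At an unadjusted p under 0.05 the count was also 0 of 8, beside 19.4% higher and 21.4% lower. Of 7 genes for mitochondrial folding and proteolysis, 3 fell from plate to border (42.9%, beside 21.4% of all probe sets) and 0 rose. They were the protease afg3l2.L by 1.31 ± 0.15, the import factor timm44.S by 0.76 ± 0.22 and the exchange factor grpel1.L by 0.54 ± 0.12. timm44.S was also lower in the border than in the cap (-1.15 ± 0.28). Between the stage 18 border and the anterior fold, limma called 0 genes of any of these related lists. At an unadjusted p under 0.05, 3 of the 24 reticulum genes were higher in that border. So were 1 of the 16 ubiquitin genes and 1 of the 20 co-chaperones. Of all probe sets 9.34% were higher there by the unadjusted p, so these counts are not read as particular to the lists.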

How the data were processed

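RNA of 11 dissected tissue samples was hybridised to Affymetrix Xenopus laevis arrays. The deposited table gives a log2 intensity per probe set and array. Its unit was read from the values (2.13 to 13.56, array medians 4.94 to 5.04, 0 missing). Per the submitters' processing notes R 2.14.2 was used, and the background correction, summary and normalization are not given in the sources used here. Of 15611 probe sets 120 controls were left out. Symbols came from the platform's annotation, updated through RefSeq gene IDs, 9304 probe sets having 1 symbol, 195 several and 5992 none, and 9 that fit the rule with several symbols were not used. All 124 probe sets of the set matched RefSeq. limma 3.58.1 in R 4.3.3 fitted a mean per group to all 11 arrays (6 residual and 3.75 prior degrees of freedom, prior SD 0.16), with two-sided tests and Benjamini-Hochberg adjustment over 15491 probe sets within a comparison, at a threshold of 0.05. The fit was tested on simulated data. The number of arrays limits precision. SEs are from this fit, and folds are sizes. Alternatives changed the scaling, filter, samples, moderation, weights, replicate block, probe set choice and homeolog handling, or left out arrays.

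Members, lists and tests were chosen with earlier results of these data known. Genes were named by a rule: up to 3 called genes with the largest change per family or list in each comparison, the 10 widest and 5 narrowest ranges, and members that are no subunit or chaperone. Other genes named (among them psma2.L, psma4.L, psma5.S, psma7.L, psmb9.S, psmc3.L, psmd3.S, psmd7.L, psme3.L, psme4.L, cct8.L, hspa9.L, hspb7.L, hspb8.L, dnajb2.L, dnajb11.L, dnajb12.S, dnajc1.S, dnajc25.S, hspbp1.L and homeolog copies) were chosen after their values were seen. psme3ip1 was counted apart from the activators, a change from the planned families. Coordinates are left out for want of a genome, and the promoter motif search that was planned could not be made.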

Additional observations from a re-analysis of the deposited data

How the results depend on the processing

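No called fold change of a named gene turned its sign when the scaling, samples or model changed. Among estimates that passed neither there nor in the report, 99 of 3228 values had the other sign, from 46 of 180 fold changes, the largest being dnajb9.L between border stages (-0.40, and 0.03 without stage 18 border replicate 1). Another probe set or homeolog of a gene can differ in sign, as for hspd1.S and dnajb11. Without a plate or stage 18 border array its group is 1 array, assumed to vary like the others. From plate to stage 14 border, leaving out 1 array at a time gave 23 to 33 genes higher and 4 to 7 lower, the 4 without plate replicate 1, and between border and cap 10 to 16 higher and 12 to 15 lower. The F test called 50 to 59. Between border stages these ranges were 0 to 1 higher and 0 to 2 lower, and between stage 18 border and fold 0 to 1 and 0 to 2. There single genes came and went: without stage 18 border replicate 1 hspe1.L was lost and hspa5.L called, and without replicate 2 dnajc9.L was lost. With only the arrays compared, both comparisons called 0 genes lower. Median centring called 2 lower between stages (hspd1.S joined). With .L and .S kept apart, 1 gene was higher between stages (psmd14.L), and between border and fold 1 was higher (psmd8.S) and 2 lower (psma7.S joined). Deviations of same-numbered samples from their group means had correlations of -0.03 and -0.02 for plate and border and 0.16 and 0.09 between stages. For border and fold they were 0.26 and -0.01. In a group of 2 arrays the deviations are exact opposites, so these values cannot decide whether the numbers pair samples. With the replicate block 1 gene was higher between stages (dnajb11.L), as with the block and quantile normalization, under which 8 were higher in border than cap. The causes were not tested. Of the fold changes of named genes, leaving out an array ended 50 calls, added 19 and left 1731 on their side of the threshold, and the other alternatives ended 43, added 17 and left 1368.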
